A study of Mus musculus with 2 samples.

Results

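The 10 epithelial keratin genes Krt5, Krt6a, Krt7, Krt8, Krt14, Krt15, Krt18, Krt19, Krt20 and Krt23 were examined on both arrays of a study of mouse kidney collecting duct cells in which deletion of the transcription factor gene Gata2 was induced. Krt7, Krt8, Krt18 and Krt19 were taken as the simple keratins and set beside the 6 others. Every probe that was not a control and carried one of these 10 gene names was taken, which gave 12 probes, among 30198 genes on the array and beside 33 further keratin genes. The knockout cells came from mice with 1 floxed and 1 null Gata2 allele, Pax8-rtTA and Tet-Cre (Gata2 CKO), so that deletion was driven in renal tubule cells and cells elsewhere also lacked 1 allele. The cells they were set against came from wild-type (WT) mice, whose label names no transgene. All mice were 8 weeks old, both sexes were mixed, and per the labels' protocols the deletion was induced from 4 weeks of age by 4 weeks of doxycycline. Collecting duct cells were collected on magnetic beads by means of DBA, the agglutinin of the horse gram plant, which recognises sugars on these cells. For each genotype 3 mice are described, the array names speak of mixtures without saying outright that RNA was pooled, and 1 array was hybridised.

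Keratins build the intermediate filaments of epithelial cells, and each filament pairs a type I with a type II keratin. Krt8 (type II) and Krt18 (type I) form the basic pair of simple, single-layered epithelia, and Krt7 (type II) and Krt19 (type I) join them in ducts. Krt5 (type II) pairs with Krt14 (type I) in the basal layer of stratified epithelia, where Krt15 (type I) is also made. Krt6a (type II) is known from the hair follicle and from wounded or stressed stratified epithelium. Krt20 (type I) is known from intestinal epithelium and the surface cells of the urothelium, and Krt23 is a type I keratin found in several epithelia.

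The probes that carry the comparison are 60-base oligonucleotides matched to single keratin transcripts. The stretches below show which part of each transcript was read for the 3 genes with the largest differences, the 3 main simple keratins and Krt14. All read 5′ to 3′ along the transcript. Capitals mark a TGA triplet, a stop codon where it is read in frame, and those stretches are printed only as far as it; the others are printed whole.
Krt6a: agcaagaagagctacaggcagTGA
Krt15: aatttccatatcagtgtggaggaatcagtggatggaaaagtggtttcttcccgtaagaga
Krt19: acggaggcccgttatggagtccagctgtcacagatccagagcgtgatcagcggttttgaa
Krt7: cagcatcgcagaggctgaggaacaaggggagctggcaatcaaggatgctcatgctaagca
Krt8: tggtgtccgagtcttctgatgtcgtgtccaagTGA
Krt18: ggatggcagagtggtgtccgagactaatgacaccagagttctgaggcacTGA
Krt14: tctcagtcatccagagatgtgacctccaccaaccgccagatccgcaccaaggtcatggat
In the mouse build mm9, as the files give it, the Krt6a probe lies at chr15:101520862-101520921 on the minus strand. The Krt15 and Krt19 probes lie at chr11:99993340-99993399 and chr11:100002392-100002451, both minus. The Krt7 probe shown is at chr15:101253718-101253777 on the plus strand. A second Krt7 probe, the brighter one that represents the gene in counts and medians, is at chr15:101258172-101258231. The Krt8 probe shown is at chr15:101827346-101827405, minus, and the Krt18 probe at chr15:101862341-101862400, plus. The Krt14 probe is placed at chr11:100064683-100065288, minus, a span of 606 bases for 60 bases of probe, so that its target is not contiguous in the genome. No probe of these keratins shared a run of more than 16 bases with a probe of another gene on the array.

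Each signal below is given relative to the 75th percentile of its own array, called the scaled signal, and each difference is CKO minus WT of its log2 value. The value after ± combines the errors that the scanner software gave both spots, called the spot error, and covers neither mice nor purification. Between repeated spots of 1 probe the difference varied less for bright than for dim probes. The root mean square standard deviation was 0.035 in the 49 brightest such probes and 0.29 in the 49 dimmest. Within the spot error therefore does not mean within the spread of repeated spots. With 1 array per genotype no test was possible, no difference has a replicate check, and array, mice and genotype cannot be told apart. A difference is called here when it reaches 2-fold. The keratins and the gene lists were chosen with earlier results of these data known. Their counts beside the shares of all genes are therefore description only. Scaled signals are compared between arrays for 1 probe and not between probes, which differ in how well they bind. A sum of scaled signals over a list therefore leans on its brightest probes.

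The deleted gene was lower by both of its probes, with Gata2 at −0.37 ± 0.20 and −0.32 ± 0.20, or 77.2% and 80.3% of the WT level. Whether these probes lie in the deleted exons is not given in the labels. All 8 principal cell markers, all 7 intercalated cell markers and all 10 markers of simple epithelium and tubule were well above background on both arrays, among them Aqp2, Slc4a1 and Cdh16. In a preparation of mixed cells, fewer cells of a type and less RNA per cell cannot be told apart.

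Krt6a, Krt15 and Krt19, 3 of the 10 keratins, were lower in CKO cells by 2-fold or more, and 0 were higher by as much. Among all 18972 genes measured 4.32% were 2-fold apart, and of the same 18972 genes 2.84% were lower in CKO cells (538 genes) and 1.49% higher (282 genes). That split was 642 and 206 after cyclic loess, 201 and 65 after normexp background correction, 1634 and 60 with spike-in scaling, and 1245 and 1214 with no filter on dim probes. Below 0 were 7 of the 10 keratins, against 42.1% of all genes, although Krt8 and the brighter probe of Krt7 lay within their spot errors. The median difference was −0.08 over the 4 simple keratins and −0.83 over the 6 others, against 0.04 over all genes. The gap between both medians depended on the background correction, since the medians were −0.13 and −0.24 with normexp. The median of the 6 others lay between Krt5, at −0.68, and Krt20, a bound at −0.98. Brightness partly followed the class. Before scaling, CKO signals were 3682 or more for Krt7, Krt8, Krt18 and Krt23. They were 89.9 or less for Krt19, Krt5, Krt6a, Krt14, Krt15 and Krt20. Whether brightness had a part in the gap was not tested.

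**Figure D1:**
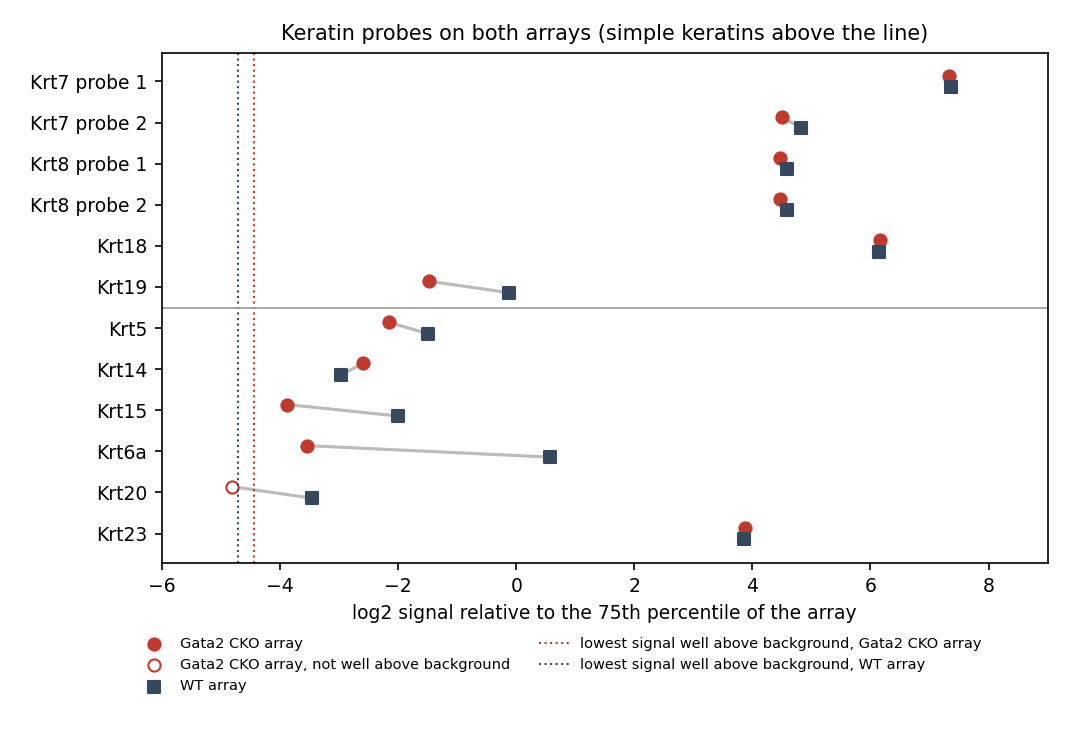
Scaled log2 signal of the 12 keratin probes on the Gata2 CKO array (red circles, upper of each pair) and the WT array (blue squares), 1 array each, with simple keratins above the line. The pairs of Krt7, Krt8, Krt18 and Krt23 lie close together, those of Krt6a, Krt15 and Krt19 lie apart, and the open circle of Krt20 was not well above background; positions of different probes are not comparable.

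The simple keratins other than Krt19 differed little. Krt8, the type II partner in simple epithelia, had a scaled signal of 22.2 on the CKO array and 23.9 on the WT array by the probe shown. By its other probe Krt8 had 22.04 on the CKO array and 24.0 on the WT array. The differences were −0.11 ± 0.20 and −0.12 ± 0.20, which is within the spot error. Krt18, its type I partner, had 71.9 on the CKO array and 70.6 on the WT array, a difference of 0.03 ± 0.20. Both partners of the Krt8 and Krt18 pair thus differed from WT by less than the spot error. Krt7, found in ducts, had 160.5 on the CKO array and 165.6 on the WT array by its probe further along the transcript, a difference of −0.04 ± 0.20. The Krt7 probe printed above gave 22.6 on the CKO array and 28.5 on the WT array, a difference of −0.33 ± 0.20. The probes of Krt7 therefore disagreed by about the spread usual between probes of 1 gene, whose root mean square standard deviation was 0.27 over 5308 genes.

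Krt19 did not follow the other simple keratins. This small type I keratin, which lacks most of the usual tail, had a scaled signal of 0.359 on the CKO array and 0.918 on the WT array. The difference was −1.35 ± 0.21, or 2.55-fold lower, and 241 of 17684 genes measured on both arrays had a lower one. Krt19 rests on 1 probe. Its difference was −0.93, short of 2-fold, with normexp, and between −1.35 and −1.90 under the other alternatives.

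The basal layer keratins were split. Krt5, the type II keratin of the basal layer, had a scaled signal of 0.223 on the CKO array and 0.357 on the WT array, a difference of −0.68 ± 0.22, short of 2-fold. The Krt5 difference was −0.29 with normexp and −1.22, past 2-fold, with spike-in scaling. Krt14, its type I partner, had 0.165 on the CKO array and 0.128 on the WT array, a difference of 0.37 ± 0.24. The pair thus stood on opposite sides of 0, although both differences were under 2-fold and Krt14 was at −0.18 with spike-in scaling. Krt15, the other basal type I keratin, had 0.0678 on the CKO array and 0.248 on the WT array, a difference of −1.87 ± 0.29, or 3.67-fold lower. The Krt15 probe was dim on the CKO array, with a processed signal of 16.9 where the lowest probe well above background had 11.6, and its difference was −0.64 with normexp.

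Krt6a showed the largest difference of the 10. Its scaled signal was 0.0854 on the CKO array and 1.48 on the WT array, a difference of −4.12 ± 0.26, or 5.75% of the WT level. Only 3 of the 17684 genes measured on both arrays were lower. The processed signal of its single probe was 21.4 on the CKO array, near the lowest of 11.6 well above background there, and 466 on the WT array. Krt6a was at −2.48 with normexp, whose offset pulls dim probes together, and was the only one of the 10 at 2-fold or more there. Under the other alternatives it was between −4.12 and −4.66. Krt6b, the near-identical copy 11.4 kb away, which is named after its value was seen, was well above background on neither array, with processed signals of 2.39 on the CKO array and 2.50 on the WT array. That level is close to the medians of the negative controls, 2.53 on the CKO array and 2.67 on the WT array. Whether the Krt6a probe also binds Krt6b transcripts was not tested.

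Krt20 was lower and Krt23 close to WT, although their probes lie 49.6 kb apart. For Krt20 only the WT array gave a signal well above background, with a processed signal of 8.93 on the CKO array and 28.7 on the WT array. It was at least 1.98-fold lower, against the lowest signal well above background. Such a signal on the WT array alone was seen for 4.71% of all genes measured. Krt20 passed 2-fold with quantile normalization, at −1.01, with cyclic loess, at −1.14, and with spike-in scaling, at −1.53, each again a bound, but was at −0.20 with normexp. Krt23 had a scaled signal of 14.7 on the CKO array and 14.5 on the WT array, a difference of 0.02 ± 0.20.

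**Figure D2:**
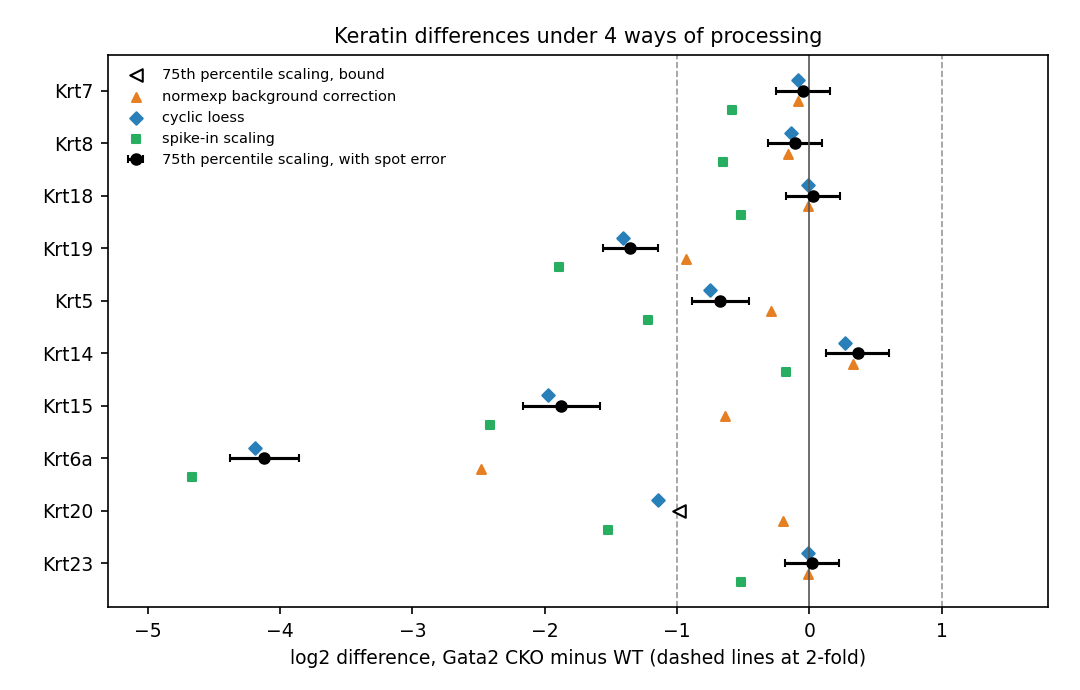
Log2 difference, Gata2 CKO minus WT, of the 10 keratins under the scaling used here (black, with spot error) and with normexp, cyclic loess and spike-in scaling, from 1 array per genotype; Krt20 is a bound under every scaling. Krt6a lies beyond 2-fold under all 4, Krt15 and Krt19 fall inside the dashed line with normexp, and Krt7, Krt8, Krt18 and Krt23 stay near 0 except with spike-in scaling, which shifts all genes.

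Spike-in scaling lowered all genes together. With the 8 spike-in control transcripts set equal, the median of all genes was −0.50 in place of 0.04 and all 10 keratins were below 0, Krt14, Krt18 and Krt23 included. Relative to that median Krt18 was at −0.02, Krt14 at 0.32, Krt19 at −1.40, Krt15 at −1.92 and Krt6a at −4.17. The signs of Krt18 and Krt23 also turned, to −0.01 each, with normexp and with cyclic loess, and that of Krt18, to −0.03, with quantile normalization.

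The keratin genes lie in clusters, mostly type I on chromosome 11 and type II on chromosome 15, with Krt18 the type I gene beside the type II genes. Krt15 and Krt19, both at least 2-fold lower, are neighbours whose probes are 9.1 kb apart. The next measured keratins on either side did not share that difference. Krt13, 10.9 kb from Krt15, was at −0.10 ± 0.22 and Krt14, 62.6 kb from Krt19, at 0.37. Further along were Krt16 at 0.27 ± 0.21 and Krt17 at 0.19 ± 0.21, type I keratins that, like Krt6a, are known from stressed stratified epithelium. On chromosome 15 Krt6a and Krt5, whose probes are 16.7 kb apart, were both lower, at −4.12 and −0.68, and Krt2 and Krt1 beyond them were at 0.76 ± 0.35 and 0.01 ± 0.25.

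**Figure D3:**
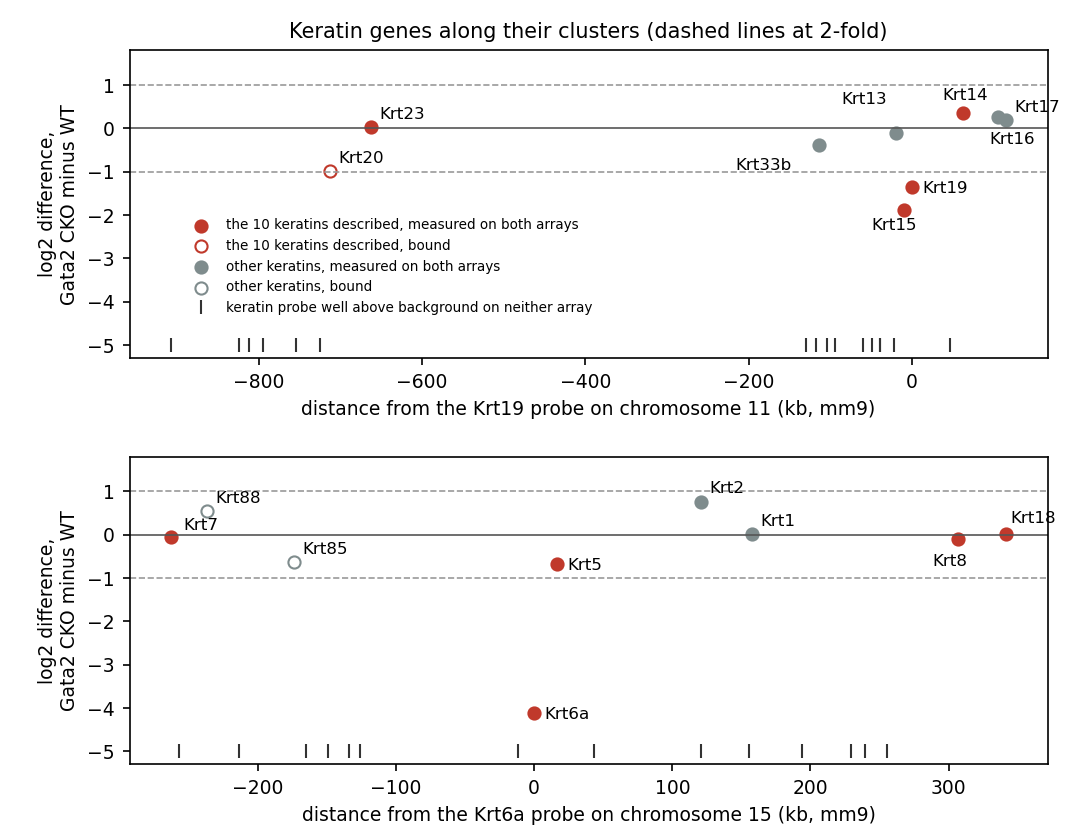
Log2 difference, Gata2 CKO minus WT, of measured keratins against the distance of their probes from Krt19 on chromosome 11 and from Krt6a on chromosome 15 (kb), with 1 array per genotype. Krt15 and Krt19 lie together below the dashed 2-fold line while Krt13 at −0.10 and Krt14 at 0.37 do not, and Krt6a stands apart from Krt5; ticks mark keratin probes well above background on neither array.

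Of the 33 other keratin genes, 9 were measured and 24 were well above background on neither array. Of the 9, 0 were 2-fold apart, which is near the 4.32% of all genes, and their median was 0.09. They are named here although the rule for naming took only those 2-fold apart. Beside Krt13, Krt16, Krt17, Krt1 and Krt2 they were Krt10, a keratin of differentiating epidermis, at 0.09 ± 0.21, the hair keratin Krt33b at −0.38 ± 0.28, the hair keratin Krt85, at least 1.55-fold lower, and Krt88, at least 1.45-fold higher. Of 16 hair and hair sheath keratins with a probe, 2 were measured, Krt33b and Krt85, the second only as a bound. Their median of −0.51 turned to 0.01 with normexp and to 0.26 with no filter on dim probes.

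Promoter sequence from RefSeq (GRCm38.p6) was found for 7 of the 10 genes, Krt5, Krt7, Krt8, Krt14, Krt18, Krt20 and Krt23, and not for Krt6a, Krt15 and Krt19. Because the deleted gene encodes a GATA factor, the 250 bases before each start were searched on both strands for the motif AGATAA, for its variant AGATAG, and for the further variants TGATAA and TGATAG. Such a match was found in 4 of the 7, Krt8, Krt14, Krt20 and Krt23, and in 26.5% of all 32851 promoters in the table. The windows of 100 bases that hold the match, in capitals, read 5′ to 3′ on the strand of the gene. That of Krt20 holds it on the opposite strand.
Krt8: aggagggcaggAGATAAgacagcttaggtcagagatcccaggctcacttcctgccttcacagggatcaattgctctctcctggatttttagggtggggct
Krt14: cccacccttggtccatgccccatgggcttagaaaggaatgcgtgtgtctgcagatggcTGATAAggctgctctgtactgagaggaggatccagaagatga
Krt20: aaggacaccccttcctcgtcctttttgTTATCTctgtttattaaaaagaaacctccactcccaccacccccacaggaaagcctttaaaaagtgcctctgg
Krt23: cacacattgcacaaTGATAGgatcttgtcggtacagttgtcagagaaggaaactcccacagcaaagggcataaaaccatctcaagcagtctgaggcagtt
They lie on the minus strand at chr15:102004493-102004592 for Krt8, chr11:100206031-100206130 for Krt14, chr11:99438304-99438403 for Krt20 and chr11:99493121-99493220 for Krt23. The first base of the match stood 239, 42, 223 and 86 bases before the start. Of these 4 genes Krt8 and Krt23 were close to WT, Krt14 was at 0.37 and Krt20 at least 1.98-fold lower. A match is only a run of letters, and no match says nothing about the factor.

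Of 12 desmosome genes, whose plaques hold keratin filaments at cell contacts, 8 were measured, 4 below and 4 above 0, with a median of −0.08 and 0 of them 2-fold apart. The desmosomal cadherin Dsg2 was at −0.37 ± 0.21, plakoglobin, Jup, at −0.27 ± 0.21, and the plakophilins Pkp4 and Pkp3 at 0.23 and 0.22. Of 10 genes of cytolinkers and hemidesmosomes 8 were measured, 6 above 0, with a median of 0.24 and 0 of them 2-fold apart. With 4.32% of all genes 2-fold apart, counts of 0 of 8 in both lists are near the share over all genes. The integrin subunit Itgb4 was at 0.62 ± 0.20, envoplakin, Evpl, at −0.41 ± 0.20, periplakin, Ppl, at 0.39 ± 0.20, and plectin, Plec, at 0.35 ± 0.20, with its 3 probes between 0.20 and 0.91. With spike-in scaling the median of the linkers was −0.30, against −0.50 for all genes.

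Other intermediate filament genes spread more widely. Of 13, 8 were measured, with a median of −0.23, 2 at least 2-fold lower and 1 at least 2-fold higher. Over all genes 2.84% were 2-fold lower and 1.49% higher. Vimentin, Vim, the filament of mesenchymal cells, had a processed signal of 189.8 on the CKO array and 688 on the WT array and was at −1.53 ± 0.21. Synemin, Synm, was at −1.27 ± 0.27 by 1 probe, while the other gave no fold. Nestin, Nes, was at −0.54, and the light neurofilament subunit Nefl at 2.08 ± 0.21, with 1.95 at its other probe.

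Markers of cells that make stratified keratins were mostly dim. Of 16 genes of stratified and cornified epithelium 8 were measured, 6 of them below 0, with a median of −0.12. Their summed scaled signal was 12.01 on the CKO array and 13.1 on the WT array, most of it from Sfn on both. Sprr1a, a cornified envelope precursor, was at −1.28 ± 0.21, the basal cell transcription factor Trp63 at −0.94 ± 0.22 by the 1 of its 4 probes that was measured, Ly6d at −0.43 and Sbsn at −0.19. The other measured genes were close to 0, with Lor at 0.09, Calml3 at 0.16, Sfn at −0.06 and Cdh3 at −0.05. Defining members such as Ivl, Flg, Tgm1, Tgm3, Krtdap and Dsg3 were well above background on neither array. Of 8 urothelium genes with a probe 4 were measured, with a median of 0.34. Upk1a was at 0.76 ± 0.24, with 0.13 at its other probe, Upk3b at 0.68 ± 0.28, Elf3 at −0.36 ± 0.20 and Foxa1 had no fold. The urothelium median was −0.19 with spike-in scaling, 0.01 with no filter on dim probes and 0.68 when only probes well above background on both arrays were kept. The summed scaled signal of the 4 was 5.61 on the CKO array and 6.97 on the WT array, most of it from Elf3 on both, and Upk1b, Upk2, Upk3a and Psca were well above background on neither. Whether such cells had a part in the lower Krt6a, Krt15, Krt19 and Krt20 was not tested.

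Markers of tubular injury, podocytes and parietal cells, macrophages, fibroblasts and endothelium had medians below 0. Of 10 tubular injury genes 9 were measured and all 9 were below 0, 6 of them at least 2-fold lower, against 42.1% and 2.84% of all genes. They had a median of −1.20 and a summed scaled signal of 90.0 on the CKO array and 128 on the WT array. Most of that sum came from Spp1, at −0.16, and Clu, at −0.83, on both arrays. Fibrinogen beta, Fgb, was at −2.67 ± 0.31, the adhesion molecule Vcam1 at −1.98 ± 0.20 and the matrix protease Mmp7 at −1.77 ± 0.33. The copper carrier ceruloplasmin, Cp, was at −1.98 ± 0.20, and Havcr1 was well above background on neither array. The list of podocytes and parietal cells was below 0 in 7 of 7, 4 of them at least 2-fold lower, with Wt1 at −1.70. Among these 4, Cldn1 was only a bound, and Synpo was below 0 only by −0.03. Summed signals were 2.01 on the CKO array and 3.52 on the WT array. The median of this list, −1.21, was the value of Podxl, whose other probe was at 0.22. With probes averaged that median was −0.92. The 8 macrophage markers were all below 0, 2 of them at least 2-fold lower, with a median of −0.83. Their summed signals were 45.1 on the CKO array and 94.8 on the WT array, most of it from Lyz2 on both. Fibroblast and smooth muscle markers had a median of −0.59 and endothelial markers one of −0.33. With normexp the medians were −0.34 for podocytes and parietal cells, −0.16 for fibroblasts and smooth muscle and 0 for endothelium. Their part in the keratin differences was not tested. The lists of collecting duct and other tubule cells did not all move one way. Principal cell markers had a median of −0.34, intercalated cell markers one of 0.79, the simple epithelium and tubule list one of 0.18, thick ascending limb markers one of 0.39 and proximal tubule markers one of −0.21. In the simple epithelium list the laminin subunit Lamb3 was at 1.25 ± 0.23, Muc1 at 0.70, Pax2 at 0.45 and Tjp1 at −0.39. The other probe of Tjp1 was at 0.17.

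**Figure D4:**
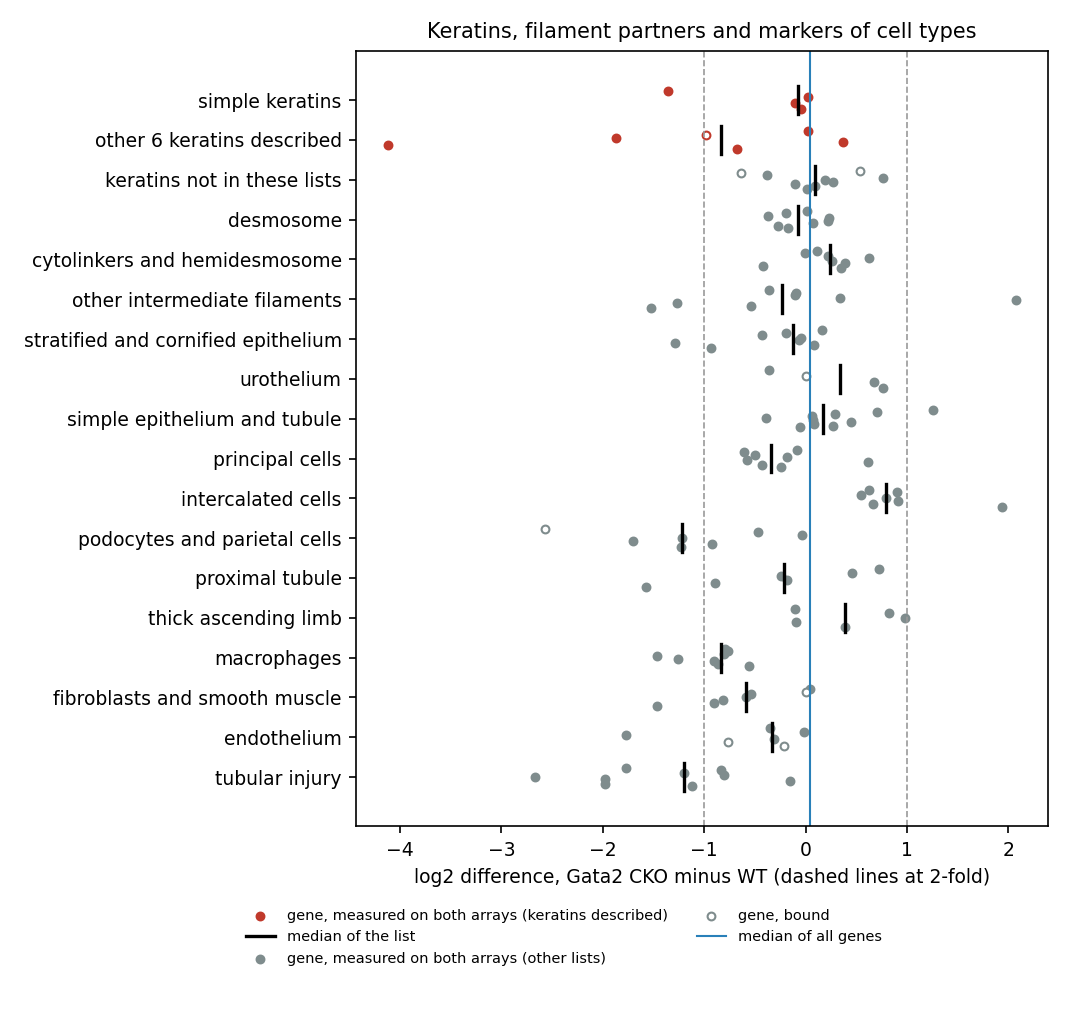
Log2 difference, Gata2 CKO minus WT, of each measured gene (points, open for bounds) in the keratin, filament partner and cell marker lists, with list medians (black bars) and the median of all genes (blue line), from 1 array per genotype. The 4 simple keratins cluster near 0 apart from Krt19 at −1.35, the other 6 spread between −4.12 and 0.37, and desmosome and linker genes stay within 2-fold.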

How the data were processed

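Total RNA of the purified cells was amplified from 50 ng and labelled with Cy3, per the labels' protocols. The deposited files hold linear spot intensity of 1-colour arrays. Per the file headers, Agilent Feature Extraction 10.7.3.1 produced and background-corrected it, with probe positions on mm9. How the authors normalized the arrays is not known here. The arrays shared 1 slide and 1 scan. Of 43379 spots other than controls, outlier flags removed 73 on the CKO array and 66 on the WT array, and 0 were saturated.

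Processed signals were divided by the 75th percentile of their array, 250.1 for CKO and 314 for WT, and log2 was taken. A gene was represented by the brightest of its probes (mean of both arrays) that passed the scanner's flag for signals well above background on either array. Where the flag was met on only 1 array, the difference is a bound, marked "at least". The dim side is then the lowest signal that passed, 11.6 for CKO or 12.0 for WT, or the probe's own if higher. List medians include bounds. The flag was met by 62.4% of spots on the CKO array and 64.1% on the WT array, and precision is limited by having 1 array per genotype. Symbols were updated by RefSeq accession (table of GRCm38.p6, used for names only) for 26876 of 41174 probes.

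The genes named are the 10 keratins, other keratins 2-fold apart, and up to 4 genes of largest difference among those measured on both arrays in each list, or its defining markers, with exceptions marked. Further genes are named where they limit what a list median, count or sum shows. The members and lists were chosen with earlier results of these data known. The 9 alternatives were normexp (offset 50), quantile normalization, cyclic loess, scaling on bright probes or on 8 spike-in transcripts, no filter on dim probes, a stricter one, averaging probes and keeping outlier spots. Steps were tested on simulated data. Software was limma 3.58.1 (R 4.3.3), pandas 2.3.3, numpy 2.4.6 and matplotlib 3.10.9 (Python 3.11.15).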

Additional observations from a re-analysis of the deposited data

How the results depend on the processing

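No paired analysis was possible because each genotype has 1 array, and for the same reason no array could be left out. Normexp background correction, whose offset shrinks dim probes, gave a median of −0.24 for the 6 other keratins, a gap of 0.12 between the simple and the other keratins in place of 0.75, and 1 keratin at least 2-fold lower in place of 3. It left 201 genes 2-fold lower and 65 higher. Spike-in scaling gave medians of −0.62 for the simple and −1.37 for the other keratins, 5 keratins at least 2-fold lower, and 1634 genes lower and 60 higher. With no filter on dim probes 1245 genes were lower and 1214 higher. The share of lower genes among those 2-fold apart was 65.6% in the scaling used, 75.7% with cyclic loess, 75.6% with normexp, 96.5% with spike-in scaling and 50.6% with no filter. Of 89 recomputed differences of single keratins 74 moved by less than the spot error or not at all, and 15 by more. No keratin called here changed sign. The 74 are no measure of stability, since many could not move. Averaging probes cannot change a keratin with 1 probe. Both changes of the filter on dim probes left every keratin measured on both arrays as it was, and keeping outlier spots changed no keratin. All 15 came from normexp or spike-in scaling, and with spike-in scaling every keratin moved by more. Krt20 has no value when only probes well above background on both arrays are kept. Signal over background limits Krt6a, Krt15 and Krt20, whose CKO signals lay between 8.93 and 21.4.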
